A study of Arabidopsis thaliana with 4 samples.

Results

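The 40 genes described here form the core cell cycle machinery of Arabidopsis thaliana and the switch to endoreduplication, that is 10 D cyclins, 7 A cyclins, 9 B cyclins, 5 cyclin-dependent kinases of the CDKA and CDKB types, 5 KRP inhibitors, 2 inhibitors of the SIAMESE type and 2 CCS52A genes. They were taken from a list of locus codes by gene family, a list drawn up with earlier results of these data known, and all 40 were found among the 27416 gene models measured. Their messenger RNA was sequenced from whole seedlings of the Col-0 accession, either carrying a phyB mutation or wild type (WT). PHYB encodes phytochrome B, which senses red light in green plants. The labels name no phyB allele. Seeds of both genotypes spent 4 days in the cold and then grew for 4.5 days on medium with 1% sucrose, first 12 h in white light and then 4 days in red light of 60 μmol per square metre and second. Although 2 samples of each genotype are labelled, there is a single column of values for each, so no value has a replicate check and no test between genotypes was possible.

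In the cell cycle, D cyclins bind CDKA and release E2F transcription factors from the retinoblastoma protein, which starts DNA replication. A cyclins act from replication onward, and B cyclins with CDKB kinases drive mitosis. KRP and SIAMESE proteins inhibit these kinases, and CCS52A proteins activate the complex that degrades mitotic cyclins. When mitosis is skipped and replication goes on, cells become polyploid, which is called endoreduplication. Hypocotyl cells of Arabidopsis grow in this way with few divisions, and phytochromes are known to limit their endoreduplication.

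The phyB column held 33201394 reads and the WT column 33521717 reads, of which the 40 genes took 0.0559% and 0.0549%. PHYB itself had 14.1 RPKM (reads per kilobase of coding length, scaled to the depth of the column) in phyB and 36.3 RPKM in WT, a log2 ratio of -1.36. The titles of the WT samples alone carry a word for a repeated analysis, and any difference in when or how the libraries were handled cannot be told apart from genotype. Green leaf markers summed to 22540 RPKM in phyB and 22510 RPKM in WT, but their median log2 ratio was -0.13. RBCS1A, which has near-identical copies and holds most of that sum, had a ratio above 1, and the intervals of the other 3 lay wholly below 1. Root markers summed to 2513 RPKM in phyB and 3403 RPKM in WT, nearly all of it BGLU23 at 2384 RPKM in phyB and 3280 RPKM in WT. Of the 5 root markers described 3 had ratios above 1, none with an interval wholly above 1, and the median log2 ratio was 0.06. The interval of BGLU23 lay wholly below 1. Ratios are phyB over WT, and each has a 95% interval that covers counting error only. A gene counts as described at a mean of at least 1 RPKM, which 38 of the 40 reached, and 19296 of all genes.

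Differences between the genotypes in these genes were small. At 1.5-fold, 1 of the 38 was higher in phyB (KRP3) and 2 were lower (CYCD6;1 and CYCB2;3), against 9.75% of all genes described that were higher and 7.27% that were lower. None of the 38 reached 2-fold in either direction, where 3.2% of all genes were higher and 2.18% lower. These shares are no larger than those of all genes. The median log2 ratio of the 38 was -0.05, and that of all genes -0.01 with quartiles at -0.25 and 0.26. By direction, 17 of the 38 ratios lay above 1 and 21 below, and those below included 8 of the 9 B cyclins.

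**Figure D1:**
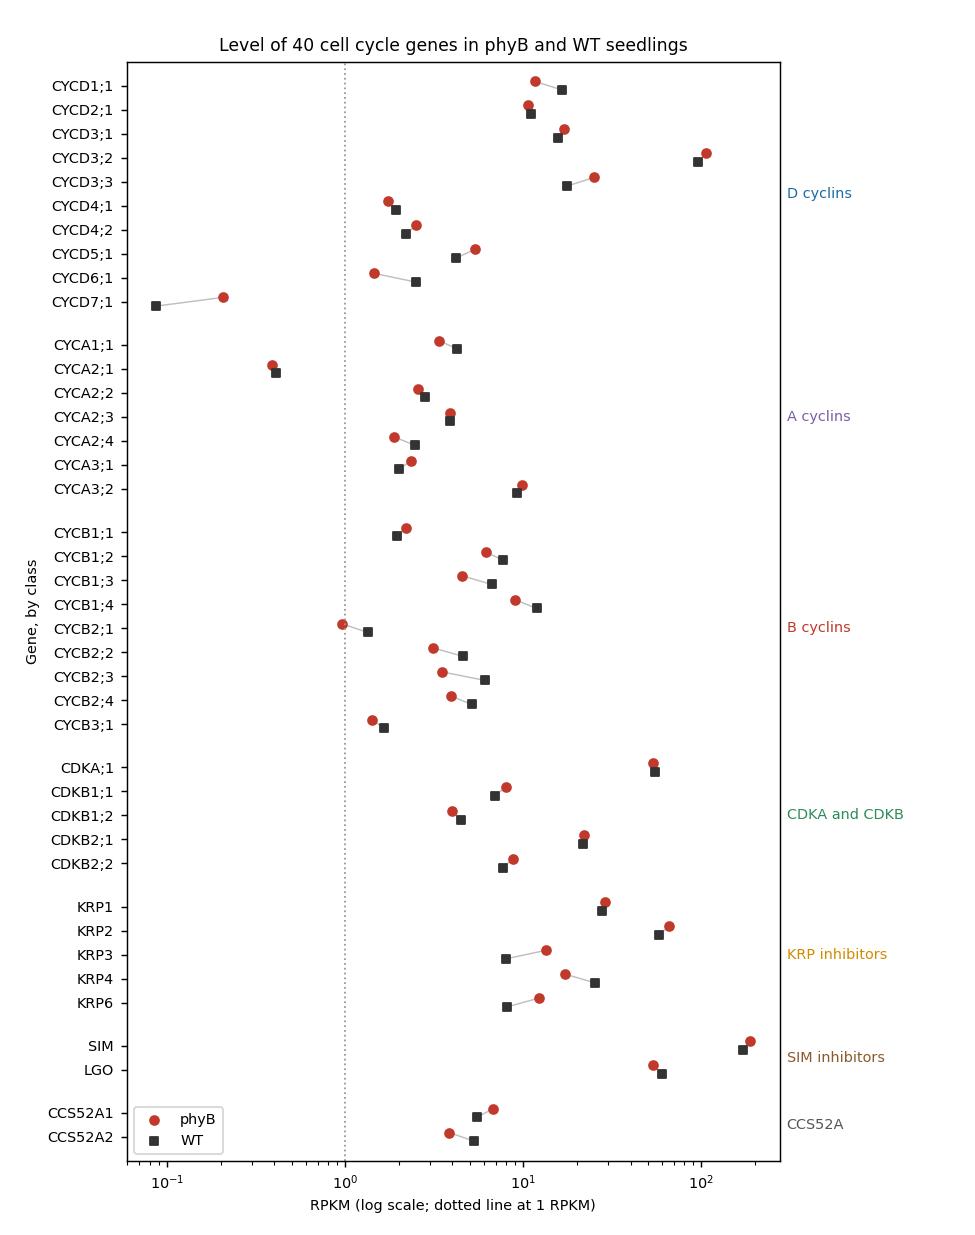
RPKM of the 40 genes in phyB (circles) and WT (squares) seedlings on a log axis, grouped by class, with 1 value per genotype and a dotted line at 1 RPKM. Levels ran up to 188 RPKM in phyB and 170 RPKM in WT for SIM, and CYCD7;1 and CYCA2;1 lay left of the line in both genotypes.

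In sum, B cyclin transcripts were lower in phyB. Their summed level was 34.8 RPKM in phyB and 47.0 RPKM in WT, with 1488 and 2022 reads, a log2 ratio of the read sums of -0.43 (interval -0.53 to -0.33). The median log2 ratio was -0.40. Against a background of 51.0% of all genes below 1, 8 of the 9 lay there, and for 6 of 9 the counting interval lay wholly below 1, against 32.0% of all genes. In a whole seedling, fewer dividing cells and less RNA per cell cannot be told apart.

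CYCB2;3 (AT1G20610), a mitotic cyclin of the B2 group, had 3.48 RPKM in phyB and 6.11 RPKM in WT, from 149 and 264 reads, a log2 ratio of -0.81 (-1.11 to -0.52). Its relative CYCB2;2 had 3.11 RPKM in phyB and 4.60 RPKM in WT, a log2 ratio of -0.57 (-0.90 to -0.24). All 4 B2 cyclins lay below 1, and their sum was 11.4 RPKM in phyB and 17.2 RPKM in WT. CYCB2;1 was the faintest of them at 0.957 RPKM in phyB and 1.34 RPKM in WT, and its interval from -1.10 to 0.12 included 0.

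In the B1 group, CYCB1;4 was the most abundant with 9.03 RPKM in phyB and 11.9 RPKM in WT, a log2 ratio of -0.40 (-0.60 to -0.19). CYCB1;3 had 4.55 RPKM in phyB and 6.64 RPKM in WT (-0.55, interval -0.82 to -0.27). CYCB1;2 stood at 6.17 RPKM in phyB and 7.69 RPKM in WT (-0.32, interval -0.55 to -0.09). The exception was CYCB1;1 (AT4G37490), the usual reporter of mitotic cells, which is also induced by DNA damage. It had 2.20 RPKM in phyB and 1.95 RPKM in WT, from 94 and 84 reads, and its interval from -0.26 to 0.62 included 0. CYCB3;1, of a separate group of B cyclins, had 1.42 RPKM in phyB and 1.65 RPKM in WT with an interval that also included 0 (-0.63 to 0.20). No B cyclin overlaps another gene in the RefSeq annotation of TAIR10.1. None of the 40 genes has a near-identical copy (90% identity over 80% of the length) among the coding sequences of the gene models measured. CDKB2;1 and CDKB2;2, at 86.5% identity, and CDKB1;1 and CDKB1;2, at 85.4%, fell short of that cut. Over the coding lengths of the B cyclins, 1164 to 1947 nt, 57.9% of all 5869 genes described had ratios below 1. With the trend of the ratio on coding length over all genes removed, 8 of the 9 lay below 0 with a median of -0.40. On that scale 50.4% of all genes described lay below 0.

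**Figure D2:**
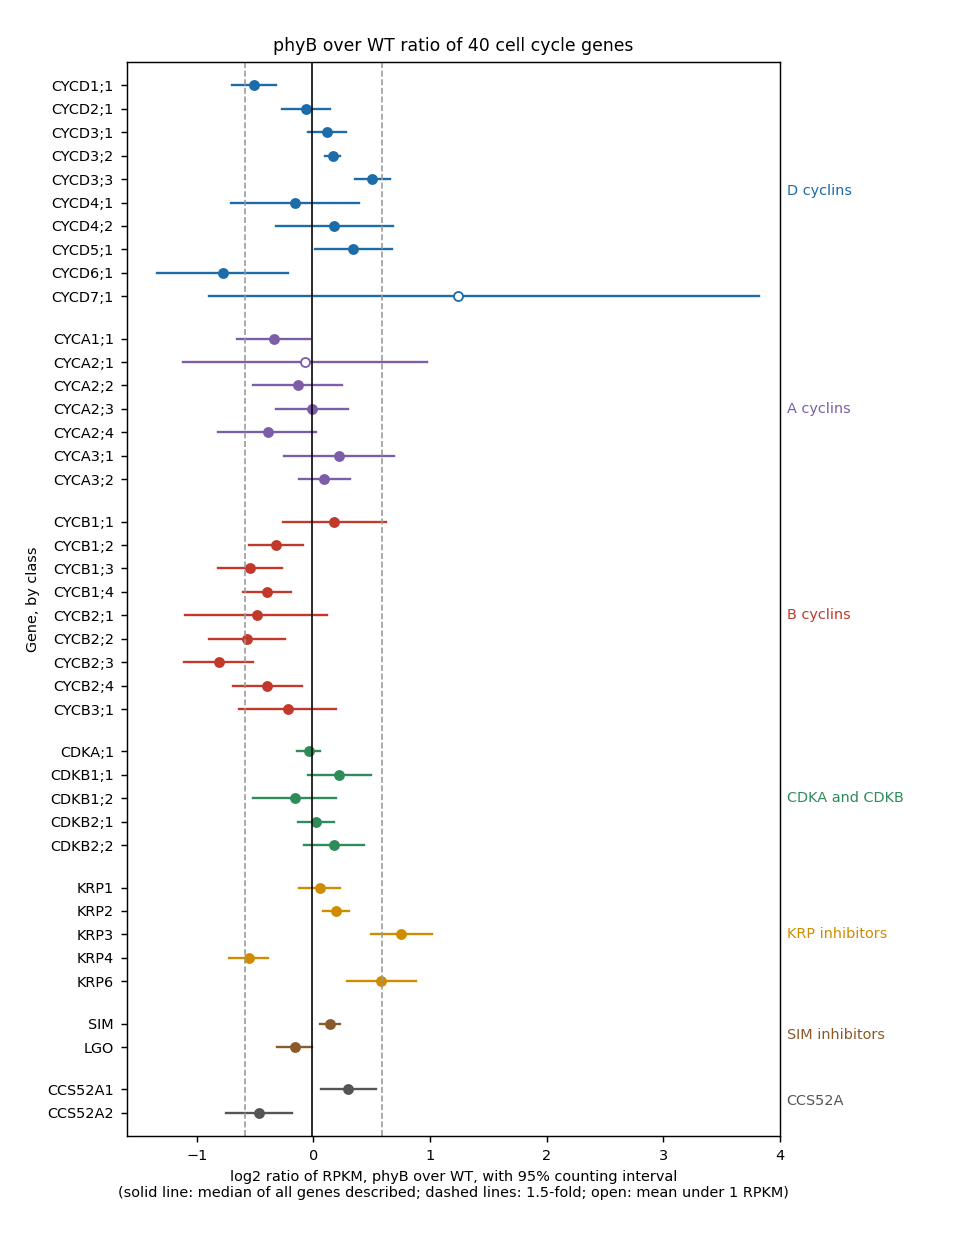
Log2 ratio of RPKM, phyB over WT, for the 40 genes with the 95% counting interval of each as a horizontal bar, the median of all genes as a solid line and 1.5-fold as dashed lines. Of the 9 B cyclins 8 lie left of the solid line, and the open symbols are the genes under a mean of 1 RPKM.

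B cyclin genes are known to be controlled through MSA elements, short sites bound by MYB3R factors. Their promoters are shown because 8 of the 9 genes had ratios on the same side of 1. The core letters AACGG, searched on both strands from 250 bases before to 50 after the gene start, were found in 8 of 9 B cyclin promoters (88.9%) and in 24.7% of the promoters of 26709 genes. At least 2 copies stood in 7 of 9 B cyclin promoters, against 4.9% of all. Matches of this core were found in 3 of 7 A cyclin, 1 of 10 D cyclin and 4 of 5 KRP promoters. The lines below give the 250 bases before the gene start, 5′ to 3′ on the strand of the gene, from the RefSeq TAIR10.1 genome, with matches of the core in capitals (CCGTT is the core on the other strand). The window of CYCB2;3 is chr1:7137829-7138078, that of CYCB1;1 chr4:17624309-17624558 and that of CYCB2;4 chr1:28630790-28631039, all on the minus strand.
CYCB2;3: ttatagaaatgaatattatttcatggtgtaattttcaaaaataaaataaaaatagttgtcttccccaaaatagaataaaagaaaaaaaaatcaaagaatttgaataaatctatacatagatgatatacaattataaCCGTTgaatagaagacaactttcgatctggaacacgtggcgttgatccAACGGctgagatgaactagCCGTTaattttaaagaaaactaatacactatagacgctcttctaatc
CYCB1;1: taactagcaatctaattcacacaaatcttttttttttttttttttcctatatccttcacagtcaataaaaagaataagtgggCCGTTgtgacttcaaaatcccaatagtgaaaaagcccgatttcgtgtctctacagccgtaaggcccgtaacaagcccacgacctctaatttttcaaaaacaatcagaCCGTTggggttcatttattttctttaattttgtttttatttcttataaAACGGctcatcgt
CYCB2;4: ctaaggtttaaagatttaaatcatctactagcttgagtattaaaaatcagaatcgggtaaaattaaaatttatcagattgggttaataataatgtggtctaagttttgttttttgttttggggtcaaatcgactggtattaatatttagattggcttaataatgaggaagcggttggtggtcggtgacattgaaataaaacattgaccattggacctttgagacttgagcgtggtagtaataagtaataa
The CYCB2;3 window holds 3 copies, which start between 114 and 47 bases before the gene start. The CYCB1;1 window also holds 3 copies, and the window of CYCB2;4 none. CYCB1;1, with 3 copies, had the only B cyclin ratio above 1, with an interval that included 0 (-0.26 to 0.62). CYCB2;4, with none, had 3.90 RPKM in phyB and 5.13 RPKM in WT (log2 ratio -0.39, interval -0.69 to -0.10). Whether copies of the core go with the ratios was not tested.

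The A cyclins showed no common direction. Their sums were 24.3 RPKM in phyB and 25.1 RPKM in WT, with a median log2 ratio of -0.07 over 6 described genes. CYCA3;2, the most abundant, had 9.88 RPKM in phyB and 9.25 RPKM in WT, and CYCA2;3, which limits endoreduplication, 3.87 RPKM in phyB and 3.90 RPKM in WT. CYCA1;1 was the only A cyclin with an interval off 0, at 3.38 RPKM in phyB and 4.27 RPKM in WT (log2 ratio -0.34, interval -0.65 to -0.03). CYCA2;1 was under 1 RPKM with 17 reads in phyB and 18 in WT. CYCA2;2 had 2.57 RPKM in phyB and 2.82 RPKM in WT, and CYCA2;4 had 1.87 RPKM in phyB and 2.45 RPKM in WT. CYCA3;1 had 2.34 RPKM in phyB and 2.01 RPKM in WT. The intervals of these 3 genes spanned 0, which does not show that they were alike in both genotypes.

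D cyclins held most of the cyclin transcripts, 182 RPKM in phyB and 167 RPKM in WT in sum. CYCD3;2, 1 of the D3 cyclins that keep leaf cells dividing, made up 58.6% of this sum in phyB and 57.0% in WT, at 107 RPKM in phyB and 95.2 RPKM in WT. CYCD3;3 (AT3G50070) had 25.0 RPKM in phyB and 17.6 RPKM in WT, a log2 ratio of 0.51 (0.36 to 0.65), and so the highest ratio among described D cyclins. CYCD3;1 was at 17.0 RPKM in phyB and 15.7 RPKM in WT with an interval that included 0 (-0.05 to 0.28). All 3 D3 cyclins had ratios above 1.

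Some other D cyclins had ratios below 1. CYCD1;1 had 11.6 RPKM in phyB and 16.6 RPKM in WT, a log2 ratio of -0.51 (-0.70 to -0.32). CYCD6;1, which acts in the formative divisions of the root ground tissue, had 1.46 RPKM in phyB and 2.49 RPKM in WT, from only 44 and 76 reads, a log2 ratio of -0.77 (-1.34 to -0.22). Both overlap a gene on the opposite strand, as does CYCD3;2, and as strand use is not given, reads from those neighbours may be included. CYCA2;3 has such a neighbour too, and CYCD3;1 one on its own strand. CYCD5;1, a locus linked to natural variation in endoreduplication, had 5.33 RPKM in phyB and 4.20 RPKM in WT, with an interval from 0.01 to 0.68. CYCD2;1, a cyclin whose transcript is known to respond to sugar, was at 10.6 RPKM in phyB and 11.0 RPKM in WT. The CYCD4 genes act in stomatal divisions of the hypocotyl. CYCD4;1 had 1.73 RPKM in phyB and 1.93 RPKM in WT and CYCD4;2 had 2.48 RPKM in phyB and 2.19 RPKM in WT, both with intervals that included 0. CYCD7;1, a cyclin of the last division that forms guard cells, had 7 reads in phyB and 3 in WT, and its interval from -0.89 to 3.82 gives no direction. Stomatal lineage markers summed to 70.3 RPKM in phyB and 34.2 RPKM in WT, with 6 of 7 ratios above 1 (background 49.0%). FAMA went the other way, with 2.15 RPKM in phyB and 2.92 RPKM in WT (log2 ratio -0.44, interval -0.85 to -0.04). EPF2, a peptide that limits stomatal density, had 19.0 RPKM in phyB and 5.34 RPKM in WT, and TMM, a receptor-like protein of the lineage, 25.5 RPKM in phyB and 11.2 RPKM in WT. Their part in these cyclin values was not tested.

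The letters of an E2F site, known from genes of DNA replication, were searched in the same windows. The 8 letters TTTNNCGC, where each N is C or G, were found on either strand in 1 of 10 D cyclin promoters and in no other of the 40 genes. The share of all promoters was 1.76%. That D cyclin promoter held no match of the MSA core, so no overlap of the motifs was possible in the 40 genes.

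**Figure D3:**
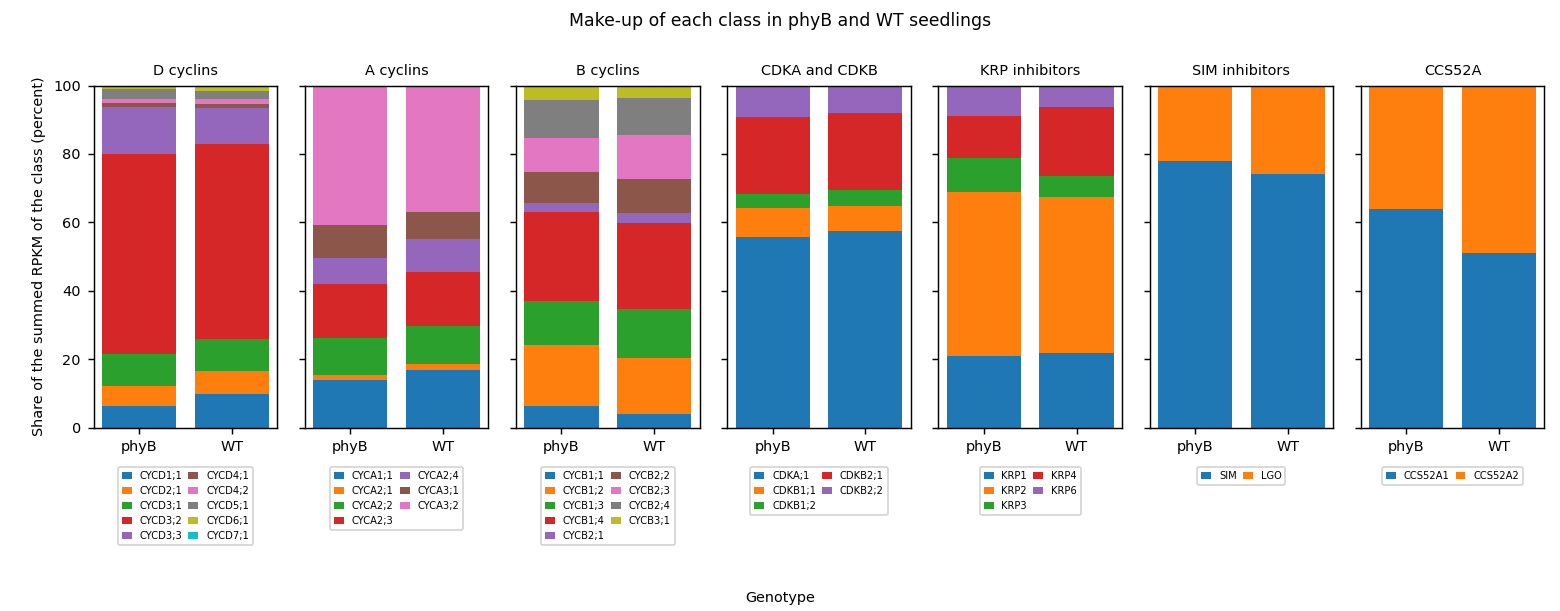
Share of the summed RPKM of each class held by each gene, in phyB (left bar) and WT (right bar). CCS52A1 holds 63.9% of the CCS52A sum in phyB and 50.9% in WT, and CYCD3;2 takes the largest part of the D cyclin sum in both genotypes.

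The log2 ratios of the 5 kinases ran from -0.16 to 0.22. CDKA;1, the kinase of all phases, had 53.6 RPKM in phyB and 55.2 RPKM in WT, a log2 ratio of -0.04 (-0.14 to 0.06). The 4 CDKB kinases, which act from late replication to mitosis, summed to 42.6 RPKM in phyB and 40.6 RPKM in WT, with a read-sum ratio of 0.07 (-0.04 to 0.18). CDKB2;1 stood at 21.8 RPKM in phyB and 21.5 RPKM in WT. CDKB1;1, which restrains endoreduplication and acts in the stomatal lineage, had 8.03 RPKM in phyB and 6.90 RPKM in WT (0.22, interval -0.05 to 0.49). CDKB1;2 had 3.99 RPKM in phyB and 4.46 RPKM in WT, and CDKB2;2, like CDKB2;1 needed in the shoot meristem, 8.71 RPKM in phyB and 7.71 RPKM in WT. None of the 5 intervals lay off 0, which does not show that the kinases were alike in both genotypes. The interval of the CDKB sum did not overlap that of the B cyclin sum. Summed B cyclin RPKM was 0.818 of summed CDKB RPKM in phyB and 1.16 of it in WT. All 4 CDKB genes overlap a gene on the opposite strand, so the CDKB sums can include reads of those neighbours.

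Among the inhibitors, single KRP genes differed in both directions while their sum differed little. The 5 KRP genes summed to 138 RPKM in phyB and 127 RPKM in WT. KRP3 (AT5G48820) had 13.5 RPKM in phyB and 8.005 RPKM in WT, from 324 and 194 reads, a log2 ratio of 0.75 (0.49 to 1.02), the highest of the 38. KRP6 had 12.2 RPKM in phyB and 8.13 RPKM in WT, a log2 ratio of 0.58 (0.29 to 0.88), just short of 1.5-fold. KRP4, in contrast, had 17.2 RPKM in phyB and 25.2 RPKM in WT (-0.56, interval -0.72 to -0.39), and it overlaps a gene on the opposite strand.

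KRP2, known to restrain lateral root initiation, was the most abundant KRP at 66.0 RPKM in phyB and 57.6 RPKM in WT (0.20, interval 0.08 to 0.31). KRP1 was at 28.8 RPKM in phyB and 27.8 RPKM in WT with an interval that included 0. These genes are short, at 576 to 870 nt of coding sequence, and the trend of the ratio over all genes falls with coding length. With it removed, KRP3 stood at 0.66, KRP6 at 0.45, KRP2 at 0.08 and KRP4 at -0.61.

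**Figure D4:**
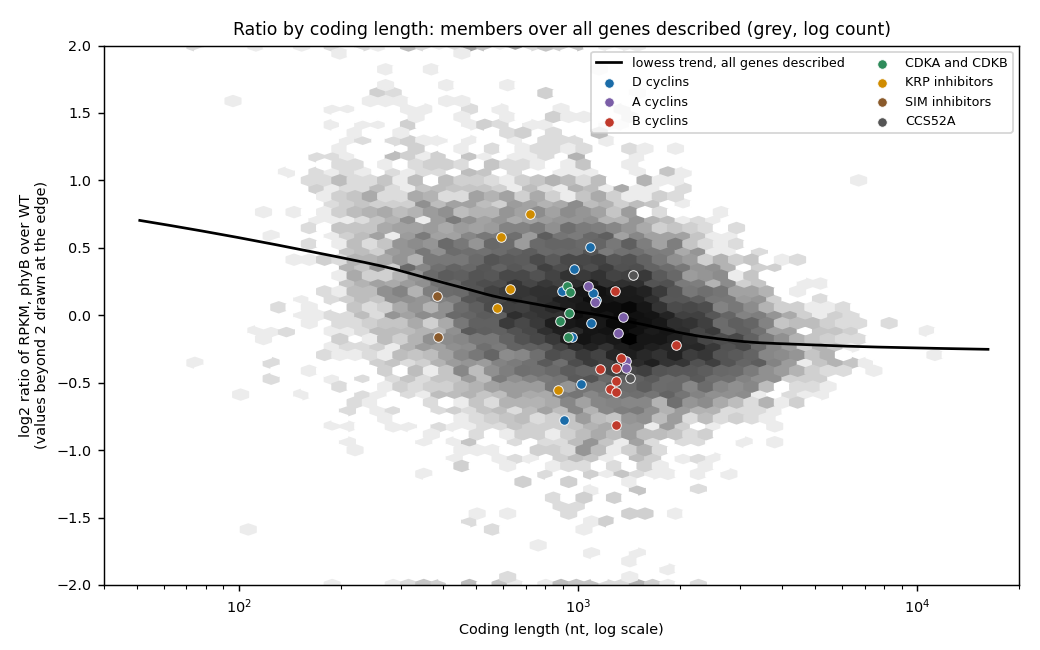
Log2 ratio of RPKM, phyB over WT, against coding length on a log axis, with all 19296 genes described as grey hexagons (darker for more genes), their lowess trend as a line and the 38 described members as coloured points by class. The trend lies between -0.12 and -0.001 at the lengths of the B cyclins, 8 of which lie below it.

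SIM and LGO, SIAMESE-type inhibitors that promote endoreduplication in trichomes and in giant cells of sepals, summed to 242 RPKM in phyB and 230 RPKM in WT. SIM had 188 RPKM in phyB and 170 RPKM in WT, a log2 ratio of 0.14 (0.06 to 0.23). LGO had 53.5 RPKM in phyB and 59.7 RPKM in WT (-0.16, interval -0.31 to -0.01). Their coding sequences have 384 and 387 nt, which makes them the shortest members. With the length trend removed SIM turned to -0.11 and LGO stood at -0.41, so no direction is given for SIM. Both also overlap a gene on the opposite strand.

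The CCS52A genes, activators of the anaphase-promoting complex, differed in opposite directions. CCS52A1, which promotes endoreduplication in trichomes and leaves, had 6.78 RPKM in phyB and 5.51 RPKM in WT (0.30, interval 0.06 to 0.54). CCS52A2, which also acts in the stem cell region of the root, had 3.84 RPKM in phyB and 5.31 RPKM in WT (-0.47, interval -0.75 to -0.19). The intervals of the pair did not overlap, and both differences are under 1.5-fold. CCS52A2 overlaps a gene on the same strand.

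Other genes of the pathway were placed beside these in 8 lists. These lists are described, not tested. Genes of mitosis and cytokinesis were mostly lower in phyB. Of 16 genes 15 had ratios below 1 (background 51.0%), 10 with an interval wholly below 1 (background 32.0%). The median log2 ratio was -0.31. With the length trend removed 14 of the 16 lay below 0 (background 50.4%), with a median of -0.22. KNOLLE, the syntaxin of the cell plate and the most abundant of them, was at 27.8 RPKM in phyB and 29.0 RPKM in WT. At 1.5-fold lower (background 7.27%) were MAP65-3, a microtubule bundling protein of the phragmoplast (2.55 RPKM in phyB and 3.86 RPKM in WT), and CDC20.2, an activator of the anaphase-promoting complex (3.72 RPKM in phyB and 6.13 RPKM in WT), which has a near-identical copy in CDC20.1. Both were named after their values were seen, and with the length trend removed MAP65-3 stood at -0.46, short of 1.5-fold. The MSA core stood in 11 of the 16 promoters of this list (68.8%), against 24.7% of all promoters. It also stood in lists that were not mostly lower in phyB. These were replication licensing and S phase (8 of 20), CDK subunits and CDK-regulating kinases (4 of 8), and topoisomerase VI and inhibitors of the anaphase-promoting complex (3 of 6). At least 2 copies stood in 1 of 20, 0 of 8 and 0 of 6 promoters of those lists, against 4.9% of all promoters. For mitosis and cytokinesis it was 6 of 16 (37.5%) and for MYB3R factors 2 of 4. The other KRP and SIAMESE-related genes had 2 of 11, the E2F, retinoblastoma and DP list 1 of 9 and the other A cyclins 1 of 3.

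MYB3R factors bind MSA elements as activators or repressors. The 4 that were listed (MYB3R1, MYB3R3, MYB3R4 and MYB3R5) all had intervals that lay wholly below 1 (background 32.0%). Their median log2 ratio was -0.45, or -0.32 with the length trend removed, and none was lower by 1.5-fold. MYB3R1 had 5.96 RPKM in phyB and 8.33 RPKM in WT, a log2 ratio of -0.48 (-0.64 to -0.33). Its coding sequence is long, and with the length trend removed it stood at -0.29.

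Genes of replication licensing and S phase were mostly higher in phyB, with 16 of 19 described genes above 1 (background 49.0%), 9 with an interval wholly above 1 (background 29.8%) and a median log2 ratio of 0.27. PCNA2, a sliding clamp of DNA polymerase, had 27.2 RPKM in phyB and 17.4 RPKM in WT (0.64, interval 0.47 to 0.81), and PCNA1 17.4 RPKM in phyB and 11.3 RPKM in WT (0.62, interval 0.41 to 0.84). The 6 subunits of the MCM helicase all lay above 1, 4 of them with an interval wholly above 1. Their sums were 38.3 RPKM in phyB and 31.4 RPKM in WT. MCM7, the most abundant of them, overlaps other genes on both strands, so the MCM sums can include reads of those neighbours. ORC6, an origin recognition subunit named after its value was seen, was the only gene of the list at 2-fold (background 3.2% higher). It had 6.38 RPKM in phyB and 2.97 RPKM in WT. PCNA2 overlaps a gene on the opposite strand, as do KNOLLE, MYB3R1, RBR1, BIN5 and CYCA3;4 among the genes named from the lists. The E2F letters stood in 9 of 20 promoters of this list (45%), against 1.76% of all. Summed B cyclin RPKM was 0.908 of summed MCM RPKM in phyB and 1.496 of it in WT.

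**Figure D5:**
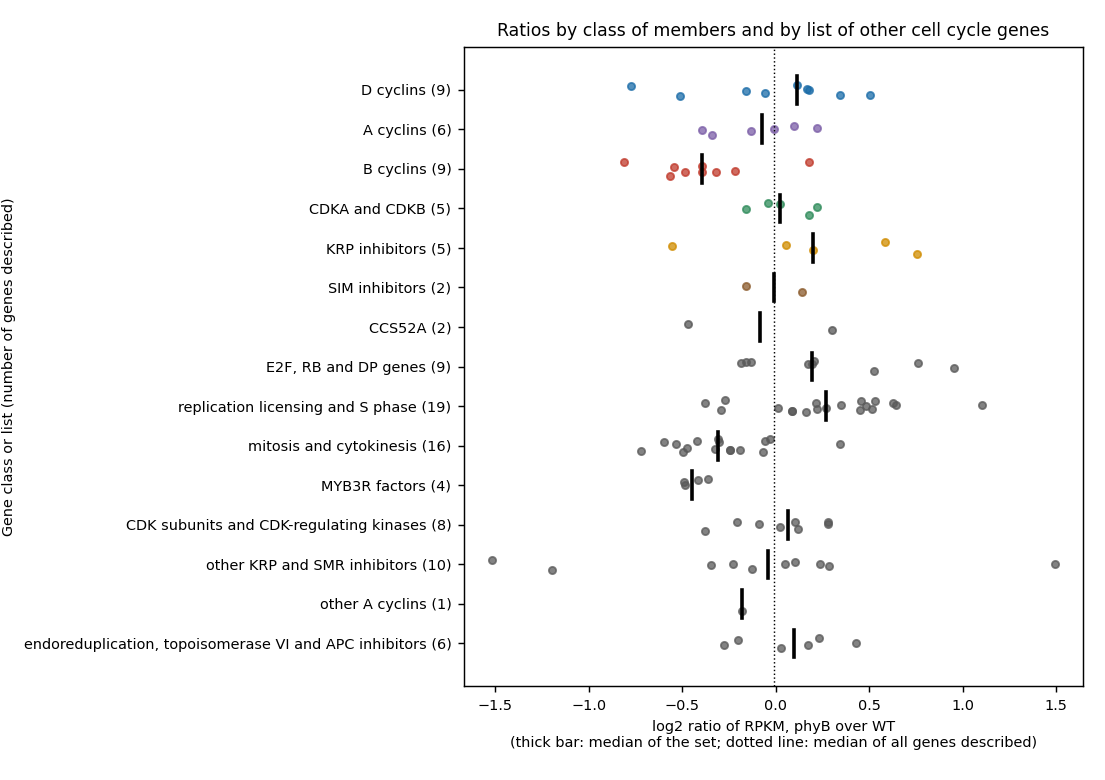
Log2 ratio of RPKM, phyB over WT, for each described gene (points) of the 7 member classes in colour and of 8 lists of other cell cycle genes in grey, with the median of each set as a thick bar and that of all genes as a dotted line. B cyclins, mitosis genes and MYB3R factors have medians of -0.40, -0.31 and -0.45, and the S phase list one of 0.27.

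The E2F, retinoblastoma and DP list had 6 of 9 genes above 1 (background 49.0%) and a median of 0.19, which was 0.02 when only its members averaging 5 RPKM or more were kept. RBR1, the retinoblastoma protein, had 10.2 RPKM in phyB and 11.6 RPKM in WT (-0.19, and 0.01 with the length trend removed). At 1.5-fold higher (background 9.75%) were DEL1, an atypical E2F that restrains endoreduplication, with 3.01 RPKM in phyB and 1.55 RPKM in WT (0.96, interval 0.50 to 1.42), and DEL2, of the same group, with a log2 ratio of 0.76 from 67 reads in phyB and 40 reads in WT. Both were named after their values were seen, and DEL1 overlaps a gene on the opposite strand. CDK subunits and the kinases that activate or inhibit CDKs had a median of 0.06, or -0.07 with the length trend removed, and none of 8 was at 1.5-fold. CKS1, a small subunit of the kinase complex, had 94.2 RPKM in phyB and 86.9 RPKM in WT (0.12, and -0.25 with the length trend removed). Genes of topoisomerase VI and of inhibitors of the anaphase-promoting complex, which act on endoreduplication, had a median of 0.10 with none of 6 at 1.5-fold. BIN5, a topoisomerase VI subunit, had 16.2 RPKM in phyB and 12.0 RPKM in WT (0.43, interval 0.26 to 0.60).

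The remaining KRP and SIAMESE-related genes had a median of -0.04 over 10 described. The most abundant, AT1G08180, a cyclin-dependent kinase inhibitor in the RefSeq annotation, had 15.4 RPKM in phyB and 14.9 RPKM in WT (0.05, and -0.25 with the length trend removed). Named after their values were seen were 3 further inhibitors of these 10 beyond 2-fold, 1 higher (background 3.2%) and 2 lower (background 2.18%). KRP7 had 4.00 RPKM in phyB and 1.42 RPKM in WT, from 78 and 28 reads (log2 ratio 1.49, interval 0.85 to 2.17). AT5G40460 had 1.95 RPKM in phyB and 4.49 RPKM in WT, from 22 and 51 reads, and AT2G28870, annotated as like the SIAMESE-related LGO, had 1.15 RPKM in phyB and 3.29 RPKM in WT, from 18 and 52 reads. With the length trend removed the median of this list was -0.33. Of 3 other A cyclins, CYCA3;4 was the only one described, at 8.90 RPKM in phyB and 10.1 RPKM in WT, and CYCA3;3 had 0 reads in both. Shoot apex markers, where dividing cells gather, summed to 10.7 RPKM in phyB and 11.4 RPKM in WT, with 2 of 5 described and WUS at 1 read in phyB and 0 in WT. The described pair differed in direction, STM with 7.71 RPKM in phyB and 9.35 RPKM in WT (-0.28, interval -0.51 to -0.05) and CUC3, named after its values were seen, with 1.47 RPKM in phyB and 0.890 RPKM in WT (0.72, interval 0.04 to 1.43). Their part in the B cyclin values was not tested.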

How the data were processed

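Each genotype has 1 read column and 1 RPKM column, per the file headers. The deposited read columns are estimated counts, whole numbers except for 0.5 where a gene model had 0 reads, which was read as 0. The RPKM values that the authors deposited equal reads per kilobase of coding length scaled to the column total. Nothing states whether a column sums both samples, so each is a single value by the authors without SD or n. Per the submitters' processing notes TAIR10 is the genome build. For aligner, counter and strand the sources used here give nothing.

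The log2 ratio of RPKM, phyB over WT, was computed with no pseudocount, with exact conditional 95% intervals (Clopper-Pearson, scipy 1.17.1) from reads and column totals. Reads copied by PCR are not independent molecules, so intervals cover counting error only. Against 0 reads a ratio used a floor of 3 reads. Described genes (mean RPKM of 1 or more) were counted by fold alone. The ratio step was tested on simulated counts that held counting error only, which does not cover variation between samples. Names, positions, overlaps and promoters came from RefSeq TAIR10.1. All 40 members matched, each with a coding length found there, 11 have an opposite-strand and 2 a same-strand overlap with another gene. Copies were sought with BLAST 2.17.0 at 90% identity over 80% of the length, among the coding sequences of the gene models measured and not in the whole genome. No protein sequence was used here. The promoter sequence of a D cyclin is not reported here.

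Members and lists were chosen with earlier results of these data known. Of each list up to 2 genes were named by rule, those of largest ratio at 1.5-fold and a mean of at least 5 RPKM, or else the gene of highest mean. Further list genes were named outside this rule, in part after their values were seen, as said beside them. Alternatives were TMM, RLE and upper-quartile factors (edgeR 4.0.16), quantile normalization, totals without organelle genes, pseudocounts of 1 and 0.1, removal of a lowess trend on coding length (span 0.3, statsmodels 0.14.6), a stricter filter (mean RPKM of 5 or more) or none, and intervals wholly beyond the fold.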

Additional observations from a re-analysis of the deposited data

How the results depend on the processing

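The B cyclins kept 8 of 9 ratios below 1 under each of the 8 settings that recompute ratios (4 normalizations, totals without organelle genes, both pseudocounts, length trend removed). Of the 49 genes recomputed, the value left its counting interval for 6 with the length trend removed and for 2 with quantile normalization. The direction of 4 members turned with the length trend removed and of 2 with upper-quartile factors, none of them at 1.5-fold, and of the list genes RBR1, CKS1 and AT1G08180 turned with the length trend removed. The median of the SIM inhibitors moved to -0.26 with the length trend removed, and that of CCS52A to 0.30 at a mean of at least 5 RPKM, which leaves 1 gene. Smaller medians also turned sign. At 5 RPKM that of all members was 0.09, of the A cyclins 0.09 (CYCA3;2 alone) and of the other KRP and SIAMESE-related genes 0.05 (also with no filter). With the length trend removed that of CDKA and CDKB was -0.02 and of the CDK subunits -0.07, and with upper-quartile factors that of the SIM inhibitors was 0.04 and of the other inhibitors 0.01. Against 1 member at least 1.5-fold higher, the count was 2 with TMM or upper-quartile factors, quantile normalization, totals without organelle genes or no filter, as KRP6 or, with no filter, CYCD7;1 was added, and 0 by the counting interval. Against 2 members at least 1.5-fold lower, it was 3 with the length trend removed (KRP4 added), 1 on the log2(RPKM + 1) scale and 0 at 5 RPKM or by the interval. At 2-fold higher it was 1 with no filter, against 0. No paired analysis was possible because the single column of a genotype carries no replicate number, and for the same reason no replicate was left out and neither edgeR's quasi-likelihood test nor DESeq2 was run. With 1 value per genotype, depth sets only the counting error, which is wide for genes under 100 reads.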
